A study of Xenopus laevis with 3 samples.

Results

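The genes described here are those whose symbol names them for testis or sperm: the tex (testis expressed), spata (spermatogenesis associated), spag (sperm associated antigen), spef (sperm flagellar), spaca (sperm acrosome associated), tcp11-like, tekt (tektin), odf (outer dense fibre), ropn1, meig1 and tsga families. They were chosen by symbol alone, from the row names of the deposited table, and tex11 was left out. The choice gave 58 of 34694 rows, from 43 symbols. One row, tsg101.L, came in by its letters: tsg101 is named as a tumour susceptibility gene and encodes a subunit of the ESCRT-I complex that sorts membrane proteins. Poly-A RNA was sequenced from whole testis, labelled as a mixture of cell types, of untreated males of outcrossed laboratory Xenopus laevis, the African clawed frog. There are 3 libraries in a single group, called replicate 1, 2 and 3, each with its own processing date. Single-library values are given below in that order. No other tissue was measured, so that a level in testis says nothing of whether a gene is restricted to testis.

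Sperm swim with a flagellum, whose core, the axoneme, is a ring of doublet microtubules around a central pair. Tektins are filament proteins that lie inside the doublets, radial spokes and the central apparatus control the beat, and outer dense fibres stiffen the tail of mammalian sperm. While a spermatid elongates, a transient microtubule sheath called the manchette carries proteins along the nucleus to the growing tail, and the acrosome forms at the front. Many spata, spag and tex genes were named after they were first found in testis, and a good number of their products work in every cell, in membrane traffic, ribosome assembly or signalling. The genome of Xenopus laevis arose from a cross of frog species and carries a pair of subgenomes, L and S. Copies of a gene on both are called homeologs and are written with the endings .L and .S.

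The library totals were 70580016, 68378714 and 61212304 counts. A row was called detected where every library had more than 3 counts and a CPM of 0.5 or above, CPM being the count scaled to library size. Levels are the TPM deposited by the authors, which is scaled to gene length and library total. Levels of different genes can so be set side by side as far as the deposited lengths match the regions counted, which was not checked. Among markers of the tissue, the germ cell gene ddx4.L had 480.3, 352 and 360.2 TPM and the meiotic sycp3.L 217, 308 and 249 TPM. The Sertoli cell gene amh.S had 33.3, 17.4 and 22.0 TPM. Not all markers were detected: of the early germ cell rows, nanos3.L and nanos3.S fell short. The labels do not state that the 3 libraries came from separate animals, so that errors and p-values cover the spread between these samples alone, which may be technical.

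Most of these genes were transcribed in testis, and as a group well above the typical row. Of the 58 rows, 54 (93.1%) were detected, beside 66.7% of all rows and 81.6% of the rows that carry a gene name. Their median level was 42.6 TPM, beside 3.25 TPM over all rows and 7.90 TPM over rows with a gene name. A mean of at least 50 TPM was reached by 28 of the 58 rows, beside 14.8% of rows with a gene name, and at least 100 TPM by 13, beside 6.81%. Together they held 0.486 ± 0.0593% of all TPM (SD, n = 3). The range was wide, from 0.0372 TPM for tcp11l1.S to 666 TPM for spaca9.L, and the 5 most abundant rows held 45.7 ± 1.43% of the sum of the 58 (SD, n = 3). In RNA from a whole organ, fewer cells of a type and less RNA per cell cannot be told apart.

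**Figure D1:**
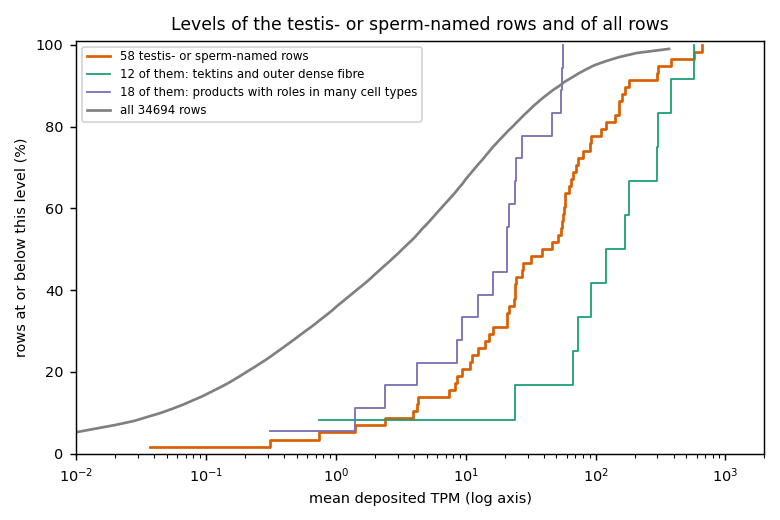
Share of rows at or below each mean level, with the deposited TPM on a log axis, for the 58 testis- or sperm-named rows, for 2 lists of them by role, and for all 34694 rows. The tektin and outer dense fibre list lies farthest right, with a median of 145 TPM, and the list of products with roles in many cell types lies nearest to all rows, with a median of 20.9 TPM.

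Levels differed between role lists. The rows were sorted into these lists by the known role of their product or of a related gene, or, as for spaca9.L, by name. There were 12 rows for tektins and outer dense fibre proteins and 10 for the axoneme, central apparatus and dynein assembly. A further 5 were for acrosome, manchette and the coupling of sperm head and tail, spaca9.L among them. The rest were 18 for products with roles in many cell types, and 13 others for which no role is stated. The medians of the mean levels were 145, 61.0, 58.1, 20.9 and 23.5 TPM in that order. No row of the 18 with roles in many cell types reached 100 TPM, against 7 of the 12 tektin and outer dense fibre rows. A list for meiosis, intercellular bridges and germ cell RNA (tex12, tex14, tex15, tex19 and spata22) matched no row by symbol, so those genes were not analysed here. These lists were drawn up with earlier results of these libraries known, and the differences between them are given as a description.

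**Figure D2:**
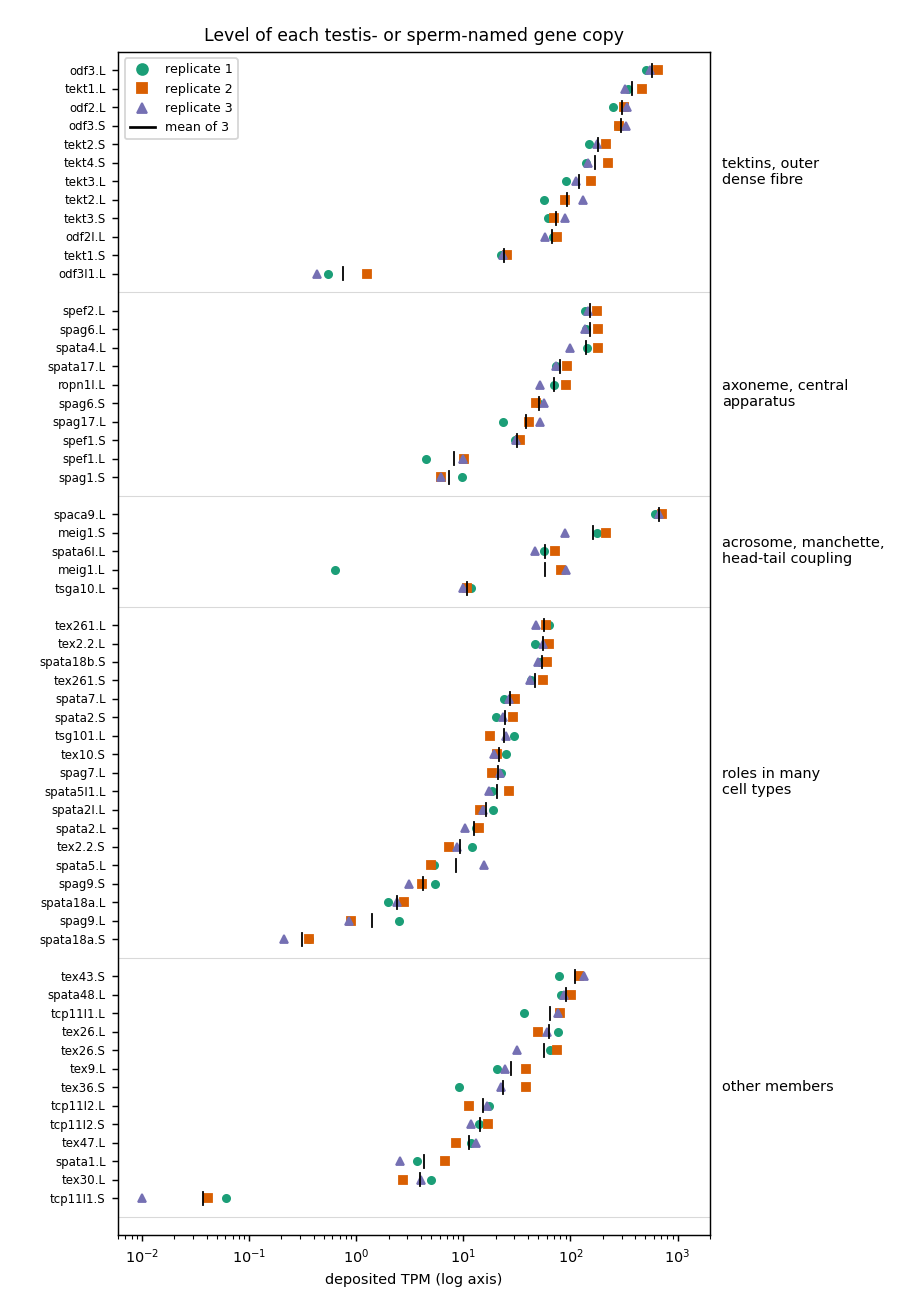
Deposited TPM on a log axis for each of the 58 rows, grouped by role, with a point for each library and a black tick for the mean of the 3 libraries. Most rows have their 3 points close together, and meig1.L stands apart with 0.627, 82.0 and 90.9 TPM.

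Tektins were among the most abundant transcripts of the set. In flagella, tektin filaments run along the inside of the doublet microtubules. The 7 tektin rows summed to 1039 ± 189 TPM (SD, n = 3), and all were detected. The row tekt1.L led with 348, 464 and 325 TPM, followed by tekt2.S with 148, 214 and 178 TPM and tekt4.S with 141, 222 and 147 TPM. The ranges of tekt2.S and tekt4.S overlapped, while each library of tekt1.L lay above all libraries of both. Below them came tekt3.L at 120.4 ± 33.0, tekt2.L at 92.1 ± 36.5, tekt3.S at 73.8 ± 14.2 and tekt1.S at 23.9 ± 1.53 TPM (SD, n = 3). The range of tekt2.L overlapped those of tekt3.L and tekt3.S, while tekt3.L lay above tekt3.S in all libraries of both. Of tekt1, tekt2 and tekt3 both copies had a row, and tekt4 had a row for S alone.

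Genes of the outer dense fibre name were as abundant. The protein of odf3 belongs to a family that binds flagellar microtubules. The row odf3.L had 505, 655 and 554 TPM and odf3.S 277, 283 and 332 TPM, so that the pair summed to 869 ± 79.8 TPM (SD, n = 3). The gene odf2, whose product is a fibre protein in sperm and a component of centriole appendages in other cells, had 248, 319 and 340.4 TPM for odf2.L. Its range overlapped that of odf3.S and lay below that of odf3.L. The related odf2l.L stood lower, at 66.8 ± 8.52 TPM (SD, n = 3). The relative of odf3, odf3l1.L, was not detected, with 27, 62 and 19 counts and 0.543, 1.26 and 0.430 TPM, 1 of 4 rows in the set below the detection limit.

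Genes for the axoneme, central apparatus and dynein assembly formed the next tier, and all 10 rows were detected. The row spef2.L, for a protein of the central apparatus, had a deposited length of 1566 bases and 135, 178 and 146 TPM. For an armadillo-repeat protein of the same structure, spag6.L had 139, 179 and 137 TPM. These levels did not differ beyond their spread, and neither did that of spata4.L, at 142, 181 and 99.7 TPM. The row spata17.L, for a protein with calmodulin-binding motifs, had 73.7, 92.5 and 72.9 TPM. The row ropn1l.L, whose product docks at protein kinase A anchoring proteins of the tail, was at 70.9 ± 19.7 TPM (SD, n = 3). The giant central apparatus protein gene spag17.L was at 23.5, 40.8 and 51.7 TPM and differed more than 2-fold between libraries, with replicate 1 lowest. The gene spef1, whose protein bundles microtubules, was at 8.21 ± 3.20 TPM for L and 31.6 ± 1.72 TPM for S, and spag6.S stood at 51.2 ± 4.57 TPM (SD, n = 3). The lowest row of the list, spag1.S, encodes a cytoplasmic factor for the assembly of dynein arms, not a part of the axoneme, and was at 9.78, 6.22 and 6.22 TPM.

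The most abundant row of all 58 by TPM was spaca9.L, with 615, 709 and 673 TPM, rank 216 of 34694 rows. By CPM, which is not scaled to gene length, odf2.L stood higher, at a mean of 726 beside 440 for spaca9.L. The row spaca9.L had a deposited length of 695 bases and odf2.L 2514. The gene spaca9 is named for the acrosome, and in human cilia its protein has been seen inside microtubules. In TPM it exceeded odf3.L, the next row, in 3 of 3 libraries, though the ranges of the pair over libraries overlapped. The row spata6l.L, a relative of a gene for the connecting piece between sperm head and tail in mouse, was at 56.2, 71.3 and 46.7 TPM. The gene tsga10, needed in human sperm to hold head and tail together, had 11.8, 10.7 and 9.99 TPM for tsga10.L, the lowest row of this list. The gene meig1, which in mouse is needed to move cargo along the manchette, differed between libraries in both copies and is described below. Of the 20 genes on this list, 4 had a row, and the rest were not analysed here.

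Products with roles in many cell types had the lowest median of the role lists. Of these 18 rows, 17 were detected, and their levels ran from 0.311 to 56.6 TPM. The highest were tex261.L with 63.2, 58.6 and 48.1 TPM, for a protein whose yeast relative helps load vesicles at the endoplasmic reticulum, tex2.2.L with 47.0, 62.8 and 55.6 TPM, for a lipid-binding protein of that organelle, and spata18b.S with 51.8, 60.6 and 50.1 TPM, for a protein of mitochondrial quality control. The neighbours in this order overlapped. The other copy of tex261, tex261.S, had 42.9, 54.9 and 41.9 TPM, and its range overlapped those of the 3 rows. In the middle lay tsg101.L at 24.1 ± 6.07, tex10.S, for a factor of ribosome maturation, at 21.7 ± 2.92, spag7.L at 20.9 ± 2.22 and spata5l1.L, for an AAA ATPase, at 20.8 ± 5.23 TPM (SD, n = 3). The row spata7.L, whose human gene is needed at the cilium of photoreceptors, was at 27.0 ± 3.03 TPM, and spata2l.L, a relative of the spata2 genes, at 16.1 ± 2.36 TPM (SD, n = 3). Near the bottom were spag9.L and spag9.S, for a scaffold of JNK kinases and motor proteins, at 1.42 ± 0.942 and 4.20 ± 1.16 TPM (SD, n = 3). The row spata18a.S was not detected, with 35, 34 and 18 counts.

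Among the 13 rows without a stated role, tex43.S was the most abundant, with 78.4, 119 and 134 TPM, and spata48.L came next, with 82.0, 102 and 86.9 TPM. They were followed by tcp11l1.L with 36.5, 79.5 and 77.1 TPM, tex26.L with 76.9, 50.2 and 59.9 TPM and tex26.S with 63.9, 75.2 and 31.5 TPM. The ranges of these last 3 overlapped. The rows tex9.L, tex36.S, tcp11l2.L, tcp11l2.S and tex47.L lay between 11.2 and 27.8 TPM by mean, and spata1.L and tex30.L were at 4.32 ± 2.13 and 3.92 ± 1.11 TPM (SD, n = 3). While tcp11l1.L had 3637, 7814 and 6846 counts, its copy tcp11l1.S had 6, 4 and 1 counts, or 0.0606, 0.0409 and 0.01 TPM, and was not detected.

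The copies of a gene often differed in level. Of the 43 symbols, 15 had a row for both L and S, and all 15 pairs had enough counts to test, while 22 symbols had a row for L alone and 6 for S alone. In edgeR's quasi-likelihood test, fitted over all 6627 testable pairs with the library as a block and adjusted by Benjamini-Hochberg, 11 of the 15 pairs (73.3%) passed at 0.05, 7 toward L and 4 toward S. Over all pairs 61.2% passed, 34.5% with L higher and 26.7% with S higher, so the share among these 15 was near the background. The median size of the log2 ratio was 1.56 for the 15 pairs, beside 0.921 over all pairs. In 12 of the 15 pairs the same copy was higher in 3 of 3 libraries, beside 79.8% of all pairs. How the counting treated reads that match both copies is not stated, so the ratio of a near-identical pair is uncertain.

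**Figure D3:**
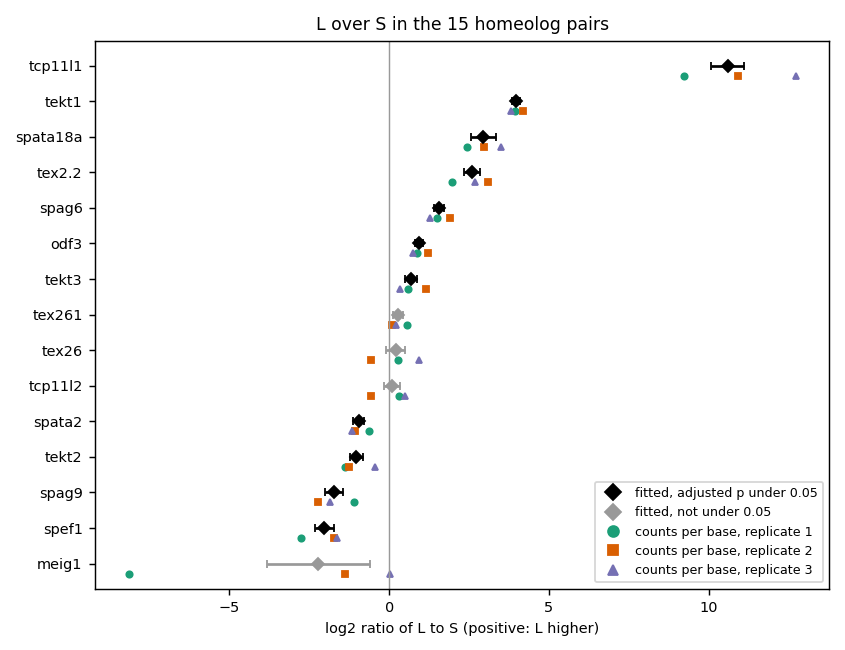
Log2 ratio of L to S for the 15 pairs, per base of coding length. Diamonds are fitted ratios with their SE, black where the adjusted p is under 0.05, and small symbols are the ratios of the 3 libraries. The pair tcp11l1 lies farthest to the L side, and meig1 has the widest spread between libraries, with a log2 ratio of -8.15, -1.40 and 0.03 in replicate 1, 2 and 3.

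In the tektin and outer dense fibre list all 4 pairs passed, beside 61.2% of all pairs. Of the 4, 3 had L and 1 had S higher. The pair tekt1 had 348, 464 and 325 TPM for L and 22.7, 25.6 and 23.4 TPM for S, a log2 ratio of 3.97 (SE 0.129, adjusted p = 0.000191, edgeR), or 15.7-fold. L held 93.9, 94.8 and 93.3% of the summed level, nearly the same share in each library. For odf3 the copies had 505, 655 and 554 TPM for L and 277, 283 and 332 TPM for S, a log2 ratio of 0.94 (SE 0.123, adjusted p = 0.00241, edgeR) with L higher in 3 of 3 libraries. The pair tekt3, with 91.4, 156 and 114 TPM for L and 61.1, 70.9 and 89.2 TPM for S, passed narrowly at 0.69 (SE 0.179, adjusted p = 0.0223, edgeR). L was higher in 3 of 3 libraries, but the ranges of the copies nearly met. The tekt3 call was lost under 4 of 10 alternatives: without replicate 1 (adjusted p = 0.0542, edgeR), without replicate 2 (0.0519), with L and S columns scaled separately (0.0533) and with no block (0.0564), over a range of 0.00301 to 0.0564 with DESeq2 and limma included.

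The pair tekt2 went the other way. Its copies had 56.9, 89.8 and 129.7 TPM for L and 148, 214 and 178 TPM for S, a log2 ratio of -1.03 (SE 0.209, adjusted p = 0.00983, edgeR) with S higher in 3 of 3 libraries. The call was lost without replicate 2, at a log2 ratio of -0.92 and adjusted p = 0.0556 (edgeR; 4.32e-05 to 0.0556 over the alternatives, DESeq2 and limma included). The L copy was highest in replicate 3, while the S copy, like tekt1.L and tekt4.S, was highest in replicate 2. This difference between the copies across libraries was not tested.

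Of the central apparatus pairs, spag6 had L higher and spef1 had S higher. The spag6 copies had 139, 179 and 137 TPM for L and 49.2, 47.9 and 56.4 TPM for S, a log2 ratio of 1.56 (SE 0.154, adjusted p = 0.00105, edgeR). The spef1 copies had 4.52, 10.2 and 9.89 TPM for L and 30.3, 33.6 and 30.9 TPM for S, a log2 ratio of -2.03 (SE 0.292, adjusted p = 0.0032, edgeR). In each pair the same copy was higher in 3 of 3 libraries and the ranges of the copies did not overlap.

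The widest ratio of the set was that of tcp11l1, a relative of the mouse t-complex gene tcp11. Its L copy had 18297 counts over the 3 libraries and its S copy 11, so that L was 1653 times higher per base of coding length, with an exact 95% interval from 924 to 3313 that covers counting error only. The fitted log2 ratio was 10.59 (SE 0.518, adjusted p = 0.000378, edgeR), rank 7 by size among the 6627 pairs. It was 11.45 without replicate 1, the library where L was lowest, and 10.04 without replicate 3. The pair tcp11l2, by contrast, had 17.2, 11.4 and 16.7 TPM for L and 13.9, 16.9 and 11.8 TPM for S, a log2 ratio of 0.08 (SE 0.255, adjusted p = 0.789, edgeR) that did not pass. The copies overlapped, with L higher in 2 of 3 libraries.

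Among products with roles in many cell types, tex2.2 and spata18a had L higher, spag9 and spata2 had S higher, and tex261 did not pass. The tex2.2 copies had 47.0, 62.8 and 55.6 TPM for L and 11.9, 7.40 and 8.63 TPM for S, a log2 ratio of 2.58 (SE 0.243, adjusted p = 0.000959, edgeR). The spata18a copies had 1.96, 2.80 and 2.38 TPM for L and 0.364, 0.359 and 0.210 TPM for S, a log2 ratio of 2.95 (SE 0.394, adjusted p = 0.00255, edgeR). Both spata18a copies were low beside spata18b.S, which has no L row by symbol and stood at 54.1 ± 5.67 TPM (SD, n = 3). For spag9 the copies had 2.50, 0.884 and 0.860 TPM for L and 5.40, 4.10 and 3.09 TPM for S, a log2 ratio of -1.72 (SE 0.278, adjusted p = 0.00468, edgeR). For spata2, whose product ties the deubiquitinase cyld to its target complex in human cells, L had 13.1, 14.05 and 10.3 TPM and S 20.2, 29.3 and 23.2 TPM, a log2 ratio of -0.95 (SE 0.175, adjusted p = 0.00712, edgeR). In these 4 pairs the ranges of L and S did not overlap. The tex261 copies, with 63.2, 58.6 and 48.1 TPM for L and 42.9, 54.9 and 41.9 TPM for S, overlapped and had a log2 ratio of 0.28 (SE 0.162, adjusted p = 0.183, edgeR).

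**Figure D4:**
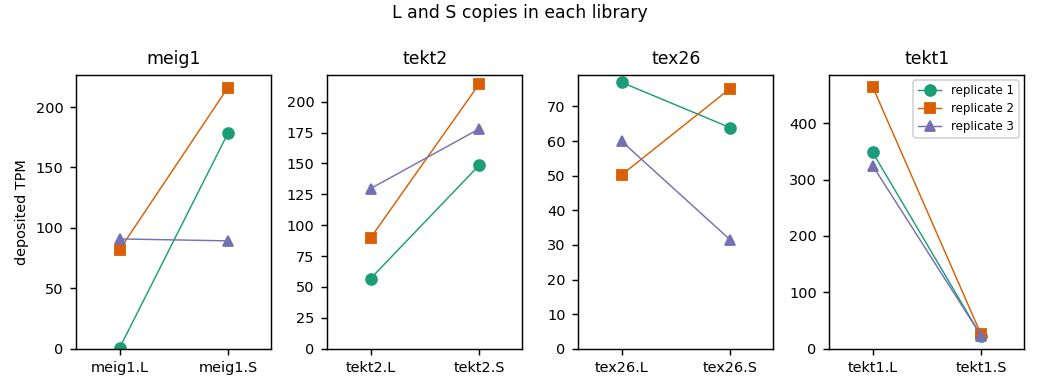
Deposited TPM of the L and the S copy of 4 pairs, with a line joining the copies within each library and each axis starting at 0. The lines of tekt1 and tekt2 run the same way in all 3 libraries, those of tex26 cross, and in meig1 the L copy is at 0.627 TPM in replicate 1.

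The pair meig1 differed most between libraries. The L copy had 11, 1420 and 1423 counts, or 0.627, 82.0 and 90.9 TPM, and so was near zero in replicate 1 and abundant in both others, which left it short of detection in all 3 libraries. The S copy had 3130, 3744 and 1398 counts, or 178, 216 and 89.3 TPM, and was lowest in replicate 3. L therefore held 0.350, 27.5 and 50.4% of the summed level. This range of 50.1 percentage points was wider than in 98.8% of the 6627 tested pairs, whose median range was 8.32 points. The summed level of both copies was 179, 298 and 180.2 TPM, and so was highest in replicate 2. As counted, it lay almost wholly in S in replicate 1 and in both copies in replicate 3. The sequence identity of L and S was not computed, and how reads matching both were counted is not stated. The fitted log2 ratio of -2.21 (SE 1.61, adjusted p = 0.278, edgeR) did not pass. It was -0.69 without replicate 1, -3.46 without replicate 2 and -4.22 without replicate 3, and it did not pass under any of the alternatives run (adjusted p = 0.089 to 0.366, edgeR, DESeq2 and limma). Both copies have the same coding length of 267 bases. In the NCBI gene table meig1.S overlaps dclre1c.S, which was at 10.9, 10.4 and 9.04 TPM and so highest in replicate 1 and lowest in replicate 3.

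The tex26 copies changed places between libraries. They had 76.9, 50.2 and 59.9 TPM for L and 63.9, 75.2 and 31.5 TPM for S, and the log2 ratio of 0.21 (SE 0.303, adjusted p = 0.582, edgeR) did not pass. L held 54.6, 40.1 and 65.5% of the pair, so that S was higher in replicate 2 and L in both others.

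Between libraries the detected rows of the set varied about as much as all detected rows. Over the 54 detected rows the median CV of TPM was 19.5%, beside 22.0% over all detected rows, and with CPM scaled by TMM it was 21.0%, beside 20.7%. The highest library exceeded the lowest by more than 2-fold in 10 of the 54 rows (18.5%), beside 22.9% of all detected rows. These backgrounds were not matched for level: the median was 48.9 TPM over the 54 rows and 9.72 TPM over all detected rows. The row meig1.L, with a CV of 86.0%, was not detected in all libraries and is not among the 54. The steadiest by CV of TPM were spef1.S (5.46%), tekt1.S (6.39%), spaca9.L (7.09%), tsga10.L (8.63%) and spag6.S (8.94%). With CPM their CVs were 11.4, 12.4, 13.7, 4.14 and 12.8%. The steadiest by CV of CPM were tsga10.L (4.14%), tex10.S (6.95%), spata2l.L (7.26%), spag7.L (7.94%) and tex261.L (10.7%). Which rows are steadiest thus depends on the scaling.

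The 5 most variable detected rows by CV of TPM peaked in different libraries. The row spata5.L, for an AAA ATPase of ribosome assembly, had 5.29, 4.997 and 15.5 TPM and was high in replicate 3. The row spag9.L had 2.50, 0.884 and 0.860 TPM and was high in replicate 1. The row tex36.S, at 9.09, 38.7 and 22.7 TPM, and spata1.L, at 3.70, 6.70 and 2.57 TPM, differed in all 3 libraries with replicate 2 highest. The fifth was meig1.S, also highest in replicate 2. By CV of CPM meig1.S (41.7%) also stood below tekt2.L (43.7%), spef1.L (43.6%) and tcp11l1.L (42.3%). With 1 library for each processing date, no difference between libraries can be tested.

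Replicate 2 held the highest TPM for most of the set. It was highest for 32 of the 54 detected rows (59.3%), beside 28.3% of all detected rows. With CPM scaled by TMM it was highest for 34 (63.0%), beside 35.8%. Such shares of all detected rows, here and below, were not matched for level. By role, replicate 2 was highest in TPM for 7 of 11 detected tektin and outer dense fibre rows and 7 of 10 rows of the axoneme and dynein assembly list. The same held for 3 of 4 rows of the acrosome and manchette list, 8 of 17 rows with roles in many cell types and 7 of 12 others. The tektin and outer dense fibre rows summed to 1968, 2576 and 2289.9 TPM and the rows of the axoneme and dynein assembly list to 678, 859 and 662 TPM. The rows with roles in many cell types summed to 404, 429 and 385 TPM, a narrower range. Replicate 1 was lowest for 9 of the 11 tektin and outer dense fibre rows in TPM, beside 21.8% of all detected rows, and for 10 in CPM, beside 34.4%.

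**Figure D5:**
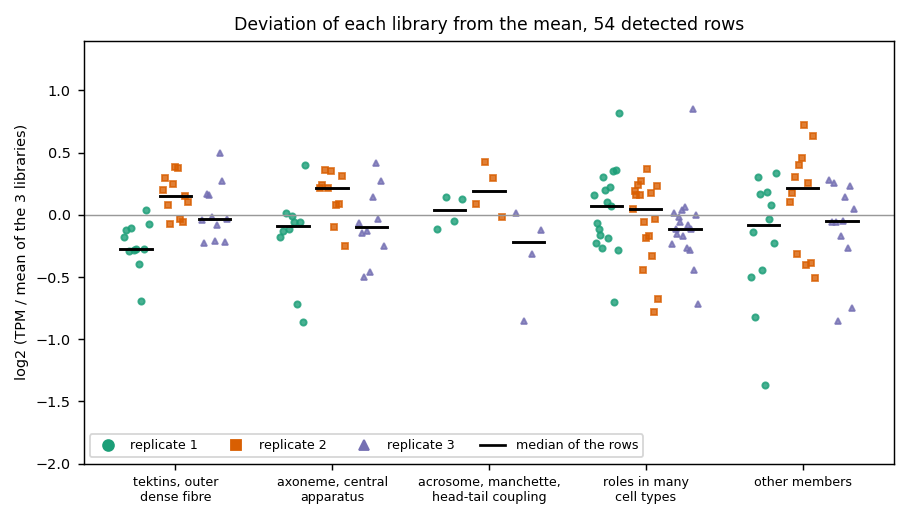
Log2 deviation of each library from the mean of the 3 libraries, in TPM, for the 54 detected rows grouped by role. Each point is a row and each bar the median of the rows. For tektins and outer dense fibre the medians are -0.27, 0.15 and -0.03 in replicate 1, 2 and 3, and for products with roles in many cell types 0.07, 0.05 and -0.11.

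Markers of several cell types also differed between these libraries. The 7 meiosis rows, all detected, summed to 863, 1043 and 923 TPM, a sum highest in replicate 2. Of the 7, 4 were highest in replicate 2, beside 28.3% of all detected rows (5 in CPM, beside 35.8%). In TPM, 2 were highest in replicate 1 and 1 in replicate 3, and stag3.L and dmc1.L were lowest in replicate 2. The 12 Sertoli rows, all detected, summed to 744, 571 and 859 TPM, and 10 of the 12 were lowest in replicate 2, beside 44.1% of all detected rows (9 of the 12 in CPM, beside 37.8%). The most abundant of them, clu.L, had 287, 332 and 429 TPM and was lowest in replicate 1, and sox9.S was lowest in replicate 3. The 10 smooth muscle rows summed to 113, 450.5 and 1245 TPM and the 8 Leydig rows to 605, 852 and 1537 TPM. All were detected, and both sums were highest in replicate 3. So were 10 of 10 smooth muscle rows and 6 of 8 Leydig rows, beside 5009 of 23153 detected rows. The Leydig rows scarb1.L and scarb1.S were highest in replicate 1. The 9 early germ cell rows, of which nanos3.L and nanos3.S were not detected, summed to 2278, 2060.1 and 1927 TPM, a sum highest in replicate 1. Of the 7 detected, 5 were highest in replicate 1, beside 11584 of 23153 detected rows. The most abundant, dazl.L, had 1191, 1309 and 1043 TPM and was highest in replicate 2, and dmrt1.S was highest in replicate 3. The 7 leukocyte rows, 6 of them detected, summed to 79.9, 58.4 and 231 TPM, of which mpo.S alone held 2.14, 1.49 and 131 TPM. Of the other lists, 7 of 7 endothelial, 4 of 5 erythrocyte, 3 of 7 oocyte, 5 of 7 adipocyte and 2 of 3 liver rows were detected. The share detected was 66.7% over all rows and 81.6% over rows with a gene name. The part of these cell types in the levels of the testis- or sperm-named rows was not tested.

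A further list held 39 genes whose products bind or work beside those of testis- or sperm-named genes, some of which (tex12, tex14 and spata22) had no row themselves. Of the 39, 25 had a row by symbol, with 36 rows, and 36 of 36 were detected, beside 66.7% of all rows and 81.6% of rows with a gene name. Their median level was 36.7 TPM, beside 3.25 and 7.90 TPM over the same rows. The synaptonemal complex genes syce2.L and sycp3.L were at 267 ± 45.6 and 258 ± 46.1 TPM, meiob.L, which in mouse acts with spata22 in meiosis, at 89.6 ± 12.8 TPM and akap14.S, an anchoring protein gene, at 188 ± 56.3 TPM (SD, n = 3). The central apparatus kinesin gene kif9.S was at 174, 243 and 179 TPM and hook1.S, for a cargo adaptor of the manchette in mouse, at 48.2, 69.6 and 48.4 TPM. Replicate 2 was highest for 19 of the 36 rows (52.8%) in TPM, beside 28.3% of all detected rows, and for 22 (61.1%) in CPM, beside 35.8%. Of 11 partner pairs tested in the same edgeR fit, 4 had L higher, among them sun1 (log2 ratio 2.21), a gene of the nuclear envelope, and 3 had S higher, among them hook1 (-3.42) and vps28 (-2.11), which encodes a subunit of the complex of tsg101. The other 4 did not pass. The 7 that passed are 63.6% of the 11, near the 61.2% over all pairs.

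In gene position, 50 of the 58 rows overlap no other gene in the NCBI table, and 8 do. For meig1.S, spata17.L, spata5l1.L, spata7.L and tekt2.L the overlapping gene had a row, at 10.1, 10.5, 30.4, 0.250 and 0.193 TPM by mean. For tekt1.L, spata2l.L and tex30.L the overlapping gene had no row, so its level is not known. Overlap was taken from the start and end of each gene alone, so whether exons overlap was not checked. Whether reads were counted by strand is not given in the sources used here. Whether any reads of such genes were counted for the wrong gene was not tested. The level of spata5l1.L, 20.8 ± 5.23 TPM (SD, n = 3), lay below that of its overlapping gene slc30a4.L, at 31.8, 31.0 and 28.3 TPM.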

How the data were processed

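The authors deposited whole-number counts per gene and TPM for each of 3 libraries, per the file headers. The submitters' processing notes list HISAT2 for alignment and featureCounts for counting. Their versions, the strand setting, the treatment of multiply matching reads and the genome build were not given in the sources used here. Deposited TPM equalled counts over the deposited gene length, scaled to a common total, for 100.0% of rows in replicates 2 and 3. In replicate 1 it did so for 95.1%. The tolerance was 0.01 TPM plus 0.1%. The deposited TPM of replicate 1 summed to 998900, below the 999987 and 999981 of replicates 2 and 3, so its rows were scaled to a lower total. Of the lengths, 90.9% are multiples of 3, so they were taken as coding lengths. The deposited counts per kilobase and log2 values were not used.

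Rows were picked by a fixed pattern on the symbol, after removing a final .L or .S. All 58 symbols were found in NCBI's table of genes (assembly Xenopus_laevis_v10.1), used here for overlaps and names alone. The members, the role, partner and marker lists and the tests were chosen with earlier results of these data known. For the role lists, tex2.2 was read as tex2, and spata18a and spata18b as spata18. Full values are given for the 4 most abundant rows of each role list, the rows not detected and each tested pair. They are also given for the 5 most and 5 least variable detected rows by CV of TPM.

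CPM used edgeR 4.0.16 with TMM factors of 1.07, 0.956 and 0.979. In libraries of 61212304 to 70580016 counts, a count of 0 allows 0.0425 to 0.0490 CPM (3 counts; counting error only). For homeologs, pairs were kept where the summed CPM of L and S reached 1 in each library, which left 6627 of 7764. The test was edgeR's quasi-likelihood F-test on the counts of L and S of each library, where the library is a block and the offset is coding length times effective library size. L and S of a library come from the same RNA. Benjamini-Hochberg adjustment ran over the 6627 pairs, and 0.05 was the threshold. The SE is the absolute log2 ratio over the square root of F. Alternatives were DESeq2 1.42.0, limma 3.58.1, other filters and scalings, no length offset, no block and leaving out each library.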

Additional observations from a re-analysis of the deposited data

How the results depend on the processing

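The number of detected rows among the 58 was 54, and lay between 54 and 57 under the 6 alternatives (57 at a CPM of at least 0.1, and 55 without replicate 1, where meig1.L joined). The median level of the set, 42.6 TPM, lay between 36.7 and 48.9 TPM, also with a library left out. Of the 15 pairs, 11 passed, and 9 to 11 did when a library was left out, 11 with DESeq2 and with limma, and 10 without the replicate block, where all pairs gave 3755 calls against 4053. With L and S columns scaled separately, all pairs split into 2015 with L and 2055 with S higher, against 2286 and 1767, and the 15 pairs into 6 and 4, against 7 and 4. The pair spata18a was too low for the filter at a CPM of at least 5. Only tekt2 and tekt3 lost their call under any of the alternatives run, and the cause was not tested. Among pairs that did not pass, tcp11l2 changed direction to -0.076 with separate scaling, and to -0.03 and -0.13 without replicates 1 and 3, within a range of -0.13 to 0.41. The pair tex26 changed direction to -0.16 without replicate 3 and reached 0.60 without replicate 2. With 1 group of 3 libraries and no other tissue, the data give levels and copy ratios alone. Rows with few counts, such as tcp11l1.S, are limited by counting error.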
